A study of Mus musculus with 12 samples.

Results

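The genes described here are 10 transcription factors and hormone- or cytokine-response genes of decidualization, taken by name from a counts table of 47729 genes. Hand2, Foxo1, Cebpb, Klf9 and Zbtb16 encode transcription factors. Fkbp5, Hsd11b1 and Errfi1 belong to the steroid response, and Il11ra1 and Lifr encode cytokine receptors. Uteri were digested with enzymes, mesenchymal cells were sorted by flow cytometry, and their RNA was sequenced. GFPtotal, also called Naive (6 libraries), was the sort of every GFP-positive cell, made of perivascular cells with high GFP and stromal fibroblasts with low GFP. GFPlow, also called Stromal and labelled GFPdim in the sample records (6 libraries), was the sort of the low-GFP fibroblasts alone. All libraries came from the healthy uterus of female Pdgfrb-BAC-eGFP mice, in which a bacterial artificial chromosome reports Pdgfrb activity as green fluorescence. The design text names 12 cycling mice. It describes no hormone treatment or pregnancy, the labels give no cycle stage or age, and no library is tied to a named mouse, so a p-value here reflects how much the libraries vary, which may be technical. GFPtotal contains the GFPlow population, so each difference is one between a mixture and one of its components.

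Decidualization is the change of endometrial stromal fibroblasts into secretory decidual cells, driven by progesterone and, in mice, set off by the embryo. The progesterone receptor switches on transcription factors such as HAND2 and co-regulators such as KLF9, while C/EBP beta and FOXO1 carry the cyclic AMP side of the response, FOXO1 mostly as studied in human cells. Interleukin-11 and leukaemia inhibitory factor signal through their own receptors joined to the shared subunit gp130, and loss of either signal makes female mice infertile. Glucocorticoid and progesterone receptors recognise the same DNA element, which is why Fkbp5 and Zbtb16 are read as responsive to either hormone.

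The promoter windows of the genes that the results turn on are shown first, so that the letters can be read beside the expression values. RefSeq windows on GRCm38.p6, running from 250 bases before a gene start to 50 after it, were found for 9 of the 10 genes (12 windows, Zbtb16 not among them). Capitals mark matches on either strand to CCAAT (the NF-Y box), GTAAACA (the forkhead box), TGACGTCA (the cyclic AMP element), TTGCGCAA (a C/EBP palindrome) or the steroid receptor element (AGAACA, any 3 bases, then TGTTCT). Klf9 is shown because it passed the test over all libraries, and Fkbp5 for the size of its difference. Foxo1 is shown because it passed without 3 libraries, which were left out after the data were seen and held its lowest GFPtotal values. The second Errfi1 window is shown for its cyclic AMP element.
Klf9 (chr19:23140976-23141275, plus strand): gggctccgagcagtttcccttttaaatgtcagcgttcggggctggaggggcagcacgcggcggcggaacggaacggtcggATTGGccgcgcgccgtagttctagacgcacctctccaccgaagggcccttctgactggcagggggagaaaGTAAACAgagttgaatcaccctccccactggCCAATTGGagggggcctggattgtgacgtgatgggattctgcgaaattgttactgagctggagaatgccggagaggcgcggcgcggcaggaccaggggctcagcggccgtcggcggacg
Foxo1 (chr3:52268087-52268386, plus strand): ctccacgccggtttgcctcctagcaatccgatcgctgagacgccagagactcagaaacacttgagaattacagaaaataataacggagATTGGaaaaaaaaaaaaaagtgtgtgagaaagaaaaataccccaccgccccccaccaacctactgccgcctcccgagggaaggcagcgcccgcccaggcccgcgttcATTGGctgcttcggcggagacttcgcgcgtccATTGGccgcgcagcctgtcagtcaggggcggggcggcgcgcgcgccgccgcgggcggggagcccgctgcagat
Fkbp5 (chr17:28486100-28486399, minus strand): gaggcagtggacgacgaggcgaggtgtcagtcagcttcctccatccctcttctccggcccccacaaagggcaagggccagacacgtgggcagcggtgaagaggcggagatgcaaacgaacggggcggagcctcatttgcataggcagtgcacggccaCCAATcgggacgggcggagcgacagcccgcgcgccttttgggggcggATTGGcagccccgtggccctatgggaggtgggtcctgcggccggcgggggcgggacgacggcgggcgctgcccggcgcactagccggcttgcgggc
Errfi1 (chr4:150854820-150855119, plus strand): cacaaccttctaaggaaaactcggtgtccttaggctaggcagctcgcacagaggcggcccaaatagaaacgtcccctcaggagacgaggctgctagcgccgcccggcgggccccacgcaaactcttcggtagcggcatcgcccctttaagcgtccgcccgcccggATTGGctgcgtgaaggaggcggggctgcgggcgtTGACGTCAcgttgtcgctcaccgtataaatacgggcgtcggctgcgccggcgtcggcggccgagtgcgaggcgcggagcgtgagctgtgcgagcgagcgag
GTAAACA was present in Klf9, starting at position -100 from the RefSeq start, and in Hsd11b1 at -138. Of the 27025 genes with windows 4.05% hold it. TGACGTCA was present in Errfi1 alone of the 9, at -51 in its second window, against 2.03% of genes. CCAAT was present in 8 of the 9, all but Cebpb, against 41.1% of genes. In Klf9 2 CCAAT matches on opposite strands overlap, at -69 and -66. The full steroid element and TTGCGCAA were present in none of the 9, against 0.011% and 0.207% of genes, and neither was the element's shorter AGAACA, which 21.3% of genes hold. Sequence outside these windows was not searched. All positions count from the RefSeq start of the window. For Fkbp5 that start lies well inside the gene as annotated for the counts (chr17:28399095-28517524, minus strand). The same holds for Hsd11b1, for both Il11ra1 windows and for the second windows of Errfi1 and Lifr.

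Libraries held 12631266 to 14950639 counts in GFPtotal, against 14339804 to 18425596 in GFPlow. Mitochondrial genes took 32.4% to 49.0% of them in GFPtotal, against 35.1% to 45.7% in GFPlow. Within GFPtotal the mitochondrial share was 40.5%, 32.4% and 33.6% in GFPtotal 3, 4 and 5, with 45.3%, 45.9% and 49.0% in GFPtotal 1, 2 and 6. GFPtotal 3, 4 and 5 were separated along component 1 of a principal component analysis (34.0% of variance), at scores of 102 to 107. GFPtotal 1, 2 and 6 scored -3.82 to 6.66, and the GFPlow libraries scored -64.6 to -31.1. GFPlow 5 was separated along component 2 (11.4%), at -86.6. The file header of GFPlow 6 names its input N8, where the other 11 headers match their labels. Its summed pericyte markers, 16.7 CPM (counts per 1000000 on TMM-scaled library sizes), were the highest of GFPlow (4.12 to 16.7) and far under the 865 to 1518 of GFPtotal, and it is kept in GFPlow as labelled. Of 6 pericyte markers tested, 6 were higher in GFPtotal, as were 4 of 6 smooth muscle markers, whose sum was 160 to 371 CPM in GFPtotal, against 21.2 to 68.0 in GFPlow. Fibroblast markers summed to 18790 to 32144 CPM in GFPtotal, against 12106 to 18753 in GFPlow. Of 7 fibroblast markers tested 1 was called (Col3a1, higher), and the sums were mostly Col1a1 and Col3a1. Of 10 epithelial markers the sum was 15.8 to 42.8 CPM in GFPtotal 3, 4 and 5, with 1.87 to 7.50 CPM in GFPtotal 1, 2 and 6, against 8.73 to 24.6 CPM in GFPlow. In bulk sorts such as these, fewer cells of a type and less RNA per cell cannot be told apart.

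Klf9 was the only one of the 10 genes whose difference passed the test over all 12 libraries, and it was higher in GFPtotal. Of the 10, 9 passed the filter on low counts and 1 was called, against 5.41% of the 14523 genes tested in either direction (4.55% higher and 0.854% lower, edgeR's quasi-likelihood test with Benjamini-Hochberg adjusted p below 0.05). The median log2 fold change of the 9 was 0.50, and 7 were positive, beside a median of -0.0006 and quartiles of -0.35 and 0.44 over all genes tested. At an unadjusted p below 0.05, 3 of the 9 passed (Klf9, Lifr and Zbtb16), against 19.9% of all genes. GFPtotal 3, 4 and 5 differed from GFPtotal 1, 2 and 6 in several of the genes, and such values are given for each set. The same libraries stood apart on component 1, which was computed over all genes tested, so such a split is not particular to these genes. How many of all genes tested split this way was not counted.

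**Figure D1:**
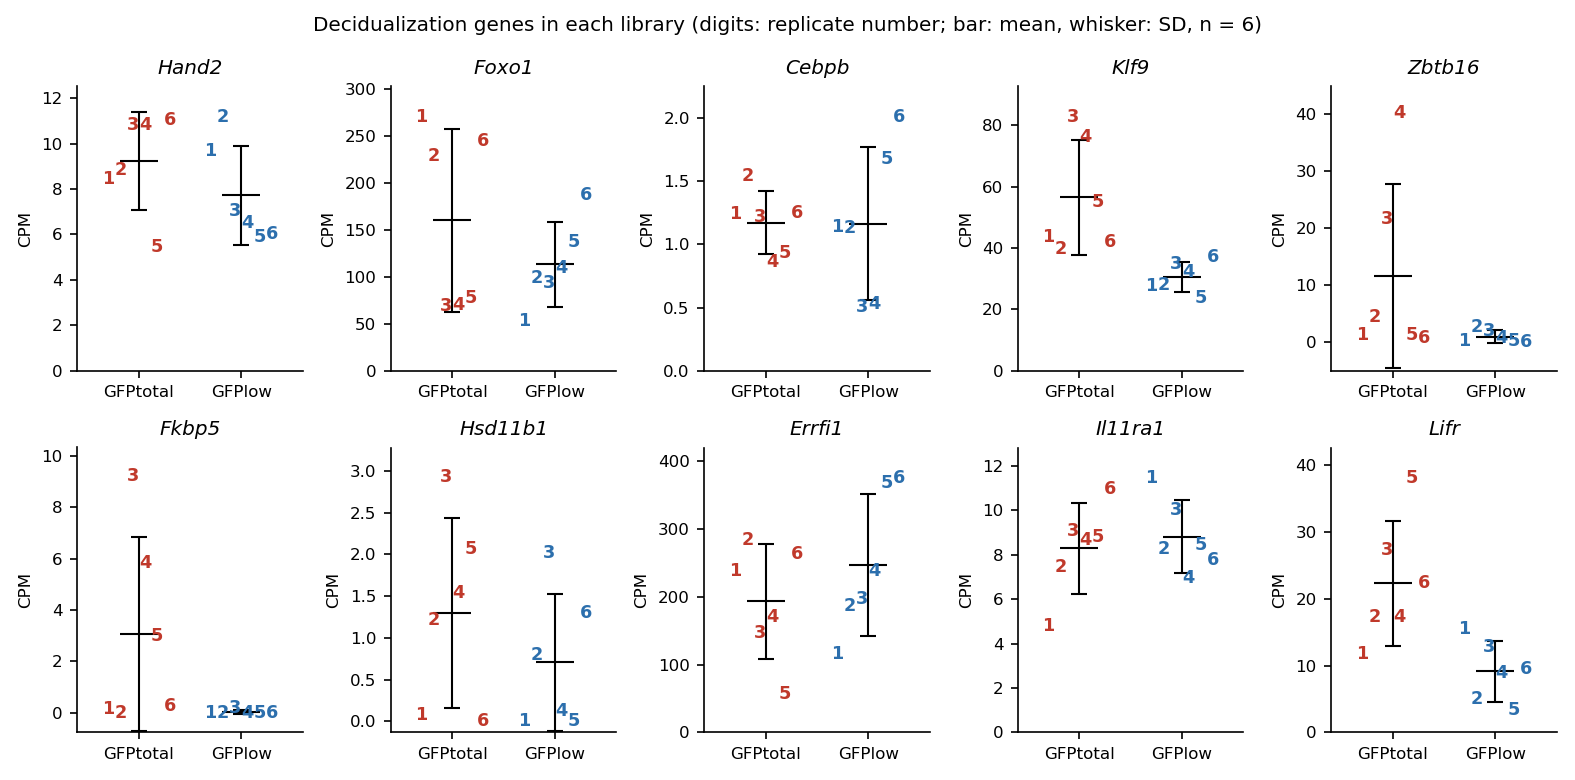
Each panel plots 1 gene in CPM (vertical axis, linear) for GFPtotal (red) and GFPlow (blue). Digits are replicate numbers, horizontal bars are means and whiskers are SD (n = 6 each). For Klf9 the red digits lie above all blue ones, and for Foxo1 the red digits split into 69.5 to 77.5 and 228 to 271 CPM.

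Klf9 (chr19:23141226-23166911, GRCm38) encodes a Krüppel-like zinc finger protein that acts with the progesterone receptor and is also induced by glucocorticoid and thyroid hormone. Its lowest, median and highest values were 39.6, 49.2 and 82.8 CPM in GFPtotal, against 23.7, 30.1 and 37.0 CPM in GFPlow. The groups did not overlap, which held for 3.66% of all genes tested, and the highest values were in GFPtotal 3, 4 and 5 (82.8, 76.0 and 55.0 CPM), with 39.6 to 43.5 CPM in GFPtotal 1, 2 and 6. The mean was 56.5 ± 18.7 CPM in GFPtotal, against 30.5 ± 4.96 CPM in GFPlow (SD, n = 6 each), a log2 fold change of 0.89 (SE 0.22, edgeR adjusted p = 0.0223). The call ended without GFPtotal 3 (0.71, edgeR adjusted p = 0.0786), without GFPtotal 4 (0.78, 0.0595), without GFPlow 2 (0.86, 0.0542) and without GFPtotal 3, 4 and 5 together (0.43, 0.438), and when total library size was the only scaling (0.86, 0.0765). It stood without GFPlow 6 (0.95, adjusted p = 0.0283). The perivascular marker sums above move with the same groups, and their part in the Klf9 difference was not tested.

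Foxo1 (chr3:52268336-52353221) encodes the forkhead factor that, in human endometrial stromal cells, works with C/EBP beta and the progesterone receptor at decidual genes. It was measured at 69.5, 70.3 and 77.5 CPM in GFPtotal 3, 4 and 5, with 271, 228 and 245 CPM in GFPtotal 1, 2 and 6, against a lowest, median and highest of 53.0, 104 and 188 CPM in GFPlow. GFPtotal 1, 2 and 6 thus lay above every GFPlow library, while GFPtotal 3, 4 and 5 lay in the lower part of the GFPlow range. Over all libraries Foxo1 did not pass (160 ± 97.1 CPM in GFPtotal, against 113 ± 45.6 CPM in GFPlow, log2 fold change 0.50, SE 0.41, edgeR adjusted p = 0.557). With GFPtotal 3, 4 and 5 left out, a choice made after the data were seen, it was the 1 gene of the 10 that was called (1.11, edgeR adjusted p = 0.0340), where 295 of 15703 genes tested, or 1.88%, were called. Of its exonic bases 7.78% are shared with Gm20402 on the other strand, which had 0 counts, and whether reads in the shared bases were dropped from Foxo1 was not tested.

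Hand2 (chr8:57320983-57324517), whose product holds back fibroblast growth factor production in the stroma of the mouse uterus under progesterone, did not pass the test either. Its lowest, median and highest values were 5.46, 9.81 and 11.0 CPM in GFPtotal, against 5.89, 6.77 and 11.2 CPM in GFPlow. The ranges overlapped almost in full, and the log2 fold change was 0.26 (SE 0.29, edgeR adjusted p = 0.692). Of its exonic bases 19.8% (443) are shared with a gene on the other strand, ENSMUSG00000100348, which had 0 counts in these libraries. Counting made no use of strand, and whether reads in the shared bases were dropped from Hand2 was not tested.

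Cebpb (chr2:167688915-167690418) encodes C/EBP beta, a basic leucine zipper factor required for decidualization in mice, and was low in every library. It ran from 0.859 through a median of 1.23 to 1.54 CPM in GFPtotal, against 0.503, 1.13 and 2.01 CPM in GFPlow. The GFPtotal range lay inside the GFPlow range, and the log2 fold change was 0.01 (SE 0.55, edgeR adjusted p = 0.996), of a sign that turned under other scalings such as total library size (-0.10). The gene had 94 counts in GFPtotal, against 115 in GFPlow. Of its exonic bases 20.7% (312) are shared with Tmem189 on the other strand (377 counts in all), whose reads the unstranded counting cannot separate. Whether reads in the shared bases were dropped from Cebpb was not tested.

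Zbtb16 (chr9:48654311-48835945, minus strand), which encodes the zinc finger repressor PLZF and is induced by progesterone in human endometrial stromal cells, was concentrated in a pair of libraries. It was measured at 40.1 and 21.6 CPM in GFPtotal 4 and 3 and at 0.623 to 4.45 CPM in the other 4 GFPtotal libraries, against 0 to 2.60 CPM in GFPlow. GFPtotal 5, which lay with GFPtotal 3 and 4 on component 1, had 1.13 CPM and so lay within the GFPlow range. The log2 fold change of 3.64 (SE 1.27) did not pass (edgeR adjusted p = 0.126), and it was 1.15 without GFPtotal 3, 4 and 5 (adjusted p = 0.774). DESeq2 called it (adjusted p = 0.0391).

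Fkbp5 (chr17:28399095-28517524, minus strand), a co-chaperone that dampens the glucocorticoid receptor and a standard readout of its activity, was nearly absent outside 3 libraries. It had 129, 95 and 45 counts in GFPtotal 3, 4 and 5, with 2, 0 and 3 counts in GFPtotal 1, 2 and 6, against 3 counts in GFPlow 3 and 0 in the other 5 GFPlow libraries. In CPM that was 2.99 to 9.22 in GFPtotal 3, 4 and 5, with 0 to 0.267 in GFPtotal 1, 2 and 6, against 0 to 0.189 in GFPlow. So 98.2% of the GFPtotal counts came from those 3 libraries, and GFPtotal 1, 2 and 6 overlapped GFPlow. Over the groups the ratio of CPM was 110 (95% interval 37.2 to 537, which covers counting error only, from 274 against 3 counts). Too few libraries had counts for the gene to pass the filter. Without the filter it was called (log2 fold change 6.28, edgeR adjusted p = 0.0114). Several marker sums split the same libraries without overlap. The endothelial sum did not, at 40.5 to 59.6 CPM in GFPtotal 3, 4 and 5, with 33.3 to 51.9 CPM in GFPtotal 1, 2 and 6. Of 4 endothelial markers tested 1 was called, Cdh5, which was lower in GFPtotal than in GFPlow. Pericyte markers summed to 1245 to 1518 CPM in GFPtotal 3, 4 and 5, with 865 to 1173 CPM in GFPtotal 1, 2 and 6, smooth muscle markers to 288 to 371 CPM, with 160 to 201 CPM, and leukocyte markers to 6.92 to 18.2 CPM, with 4.62 to 6.42 CPM. The leukocyte sum was carried by Cd68 (442 counts in GFPtotal 3, 4 and 5, with 144 in GFPtotal 1, 2 and 6). Csf1r (29, with 7) went the same way, Itgam (31, with 30) was level, and Ptprc (6, with 23) went the other way. The fibroblast sum split the other way. It was 18790 to 22491 CPM in GFPtotal 3, 4 and 5, with 29424 to 32144 CPM in GFPtotal 1, 2 and 6. Col1a1 (309233 counts, with 520799) and Col3a1 (441769, with 465630) made up most of it. Lum (20025, with 32380) and Fbln2 (4704, with 11246) went the same way as the sum. Pdgfra (29380, with 13381) and Fbln1 (1286, with 281) were instead higher in GFPtotal 3, 4 and 5. Dcn was nearly level, at 2275 to 2467 CPM, with 2219 to 2264 CPM. Between GFPtotal and GFPlow 0 of 5 tested epithelial markers were called, and the split of their sum within GFPtotal was not tested. The epithelial sum given above was carried by Ltf (750 counts in GFPtotal 3, 4 and 5, with 44 in GFPtotal 1, 2 and 6) and Cdh1 (278 counts, with 47). Epcam (64 counts, with 23), Wfdc2 (22, with 1) and the keratin gene Krt18 (47, with 1) went the same way, Krt18 mostly in GFPtotal 4. The keratin genes Krt7 (19 counts, with 20), Krt8 (15, with 22) and Krt19 (44, with 45) did not follow it. The part of these markers and of the mitochondrial share in the values of Fkbp5, Zbtb16, Klf9 and Foxo1 was not tested.

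Hsd11b1 (chr1:193221634-193264075, minus strand) encodes the enzyme that regenerates active glucocorticoid from its inert form and sat near the detection limit. Its lowest, median and highest values were 0, 1.37 and 2.93 CPM in GFPtotal, against 0, 0.455 and 2.01 CPM in GFPlow. It was measured at 2.93, 1.53 and 2.06 CPM in GFPtotal 3, 4 and 5, with 0.0773, 1.21 and 0 CPM in GFPtotal 1, 2 and 6, so these sets did not overlap each other while each overlapped GFPlow. A value of 0 was found in 1 GFPtotal library and 2 GFPlow libraries, where 3 counts would be 0.190 to 0.267 CPM. The groups overlapped and the log2 fold change of 0.88 had an SE of 1.09 (edgeR adjusted p = 0.718). It was -0.73 without GFPtotal 3, 4 and 5, which held 85.8% of its GFPtotal counts.

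Errfi1 (chr4:150853919-150868892) encodes MIG-6, the progesterone-induced inhibitor of the epidermal growth factor (EGF) receptor, and was the most abundant of the 10 per length. It was measured at 147, 170 and 56.4 CPM in GFPtotal 3, 4 and 5, with 238 to 284 CPM in GFPtotal 1, 2 and 6, against a lowest, median and highest of 116, 217 and 375 CPM in GFPlow. GFPtotal 5 was the lowest library of all 12, and GFPtotal 1, 2 and 6 lay inside the GFPlow range. The log2 fold change was -0.35 (SE 0.36, edgeR adjusted p = 0.650) over all libraries and 0.06 without GFPtotal 3, 4 and 5 (adjusted p = 0.965).

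Lifr (chr15:7129559-7197489) encodes the receptor subunit that binds leukaemia inhibitory factor and pairs with gp130. Its lowest, median and highest values were 11.7, 19.9 and 38.1 CPM in GFPtotal, against 3.35, 9.24 and 15.4 CPM in GFPlow. The groups met only where GFPtotal 1 (11.7 CPM) lay under GFPlow 1 (15.4 CPM) and GFPlow 3 (12.8 CPM). The mean was 22.4 ± 9.36 CPM in GFPtotal, against 9.17 ± 4.55 CPM in GFPlow, with a log2 fold change of 1.28 (SE 0.37, edgeR adjusted p = 0.0506), just short of the threshold. It was called in 6 of the 20 alternatives run, among them DESeq2 (adjusted p = 0.0121) and limma-voom (0.0373), and edgeR without GFPtotal 1 (0.0300), GFPtotal 2 (0.0493) or GFPlow 1 (0.0293). Without GFPtotal 3, 4 and 5 the log2 fold change was 0.88 (adjusted p = 0.419).

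Il11ra1 (chr4:41699989-41769474), the interleukin-11 receptor alpha chain without which mouse decidua does not form properly, did not pass the test. Its lowest, median and highest values were 4.80, 8.72 and 11.0 CPM in GFPtotal, against 6.97, 8.35 and 11.4 CPM in GFPlow. All but GFPtotal 1 lay inside the GFPlow range, and the log2 fold change was -0.09 (SE 0.28, edgeR adjusted p = 0.904). Its near-identical copy Il11ra2 had 0 counts in every library, and whether reads from shared sequence were lost at mapping was not tested. It also shares 8 exonic bases with Ccl27a on the other strand.

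**Figure D2:**
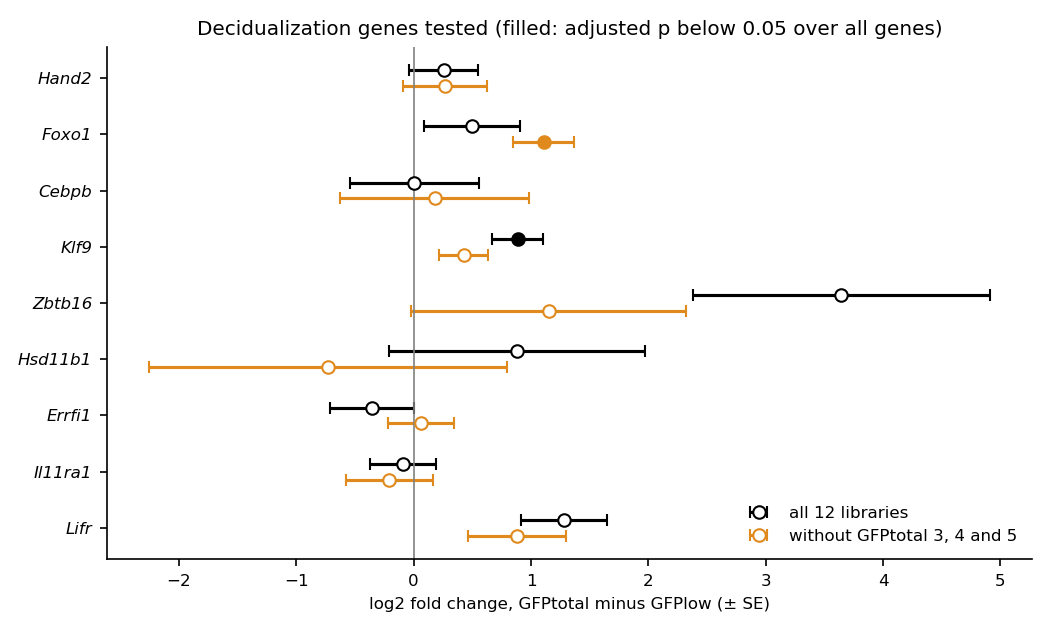
Horizontal axis: log2 fold change, GFPtotal minus GFPlow, with SE as whiskers, for the 9 genes tested. Black points use all 12 libraries and orange points leave out GFPtotal 3, 4 and 5. Filled points passed (adjusted p below 0.05), which were Klf9 at 0.89 in black and Foxo1 at 1.11 in orange. GFPtotal 3, 4 and 5 were left out after the data were seen, and they held the lowest GFPtotal values of Foxo1.

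Per length (FPKM, CPM per kilobase of exon, on TMM-scaled library sizes with the gene lengths of the files), the order of levels in GFPtotal began with Errfi1 (53.9 ± 23.8), Foxo1 (18.5 ± 11.2) and Klf9 (17.3 ± 5.73), whose ranges overlapped in turn. Below them, and apart from Klf9, were Hand2 (4.13 ± 0.97), Zbtb16 (2.26 ± 3.16), Lifr (2.17 ± 0.91) and Il11ra1 (1.85 ± 0.46), again each overlapping the next. Cebpb (0.779 ± 0.163), Fkbp5 (0.484 ± 0.593) and Hsd11b1 (0.307 ± 0.268) came last. In GFPlow the order was Errfi1 (68.9 ± 29.2), Foxo1 (13.1 ± 5.26), Klf9 (9.36 ± 1.52), Hand2 (3.45 ± 0.98) and Il11ra1 (1.97 ± 0.36). Errfi1 did not overlap Foxo1 there, Foxo1 and Klf9 overlapped, and the ranges of Klf9, Hand2 and Il11ra1 were separate from one another. Lifr (0.888 ± 0.440) overlapped Cebpb (0.774 ± 0.400), and Zbtb16 (0.178 ± 0.217), Hsd11b1 (0.166 ± 0.194) and Fkbp5 (0.00494 ± 0.0121) ended the order. By mean FPKM over all libraries, Errfi1 stood at percentile 98.5 of the genes tested, Foxo1 at 88.1, Klf9 at 85.7 and Hsd11b1 at 1.91.

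The receptors and enzymes that these genes work with were at other levels. gp130 itself, Il6st, was at 54.3 ± 30.8 FPKM in GFPtotal, against 98.0 ± 18.7 FPKM in GFPlow, well above both Lifr and Il11ra1 on the same scale. In CPM, Il6st was 287 to 298 in GFPtotal 3, 4 and 5, with 857 to 976 in GFPtotal 1, 2 and 6, against 694 to 1245 in GFPlow, and it did not pass (log2 fold change -0.85, edgeR adjusted p = 0.167). Osmr, the oncostatin M receptor subunit that also joins gp130, was the 1 gene called of 12 tested in the gp130 pathway list of 18 (median log2 fold change 0.25). It was measured at 168 to 410 CPM in GFPtotal 3, 4 and 5, with 67.7 to 95.9 CPM in GFPtotal 1, 2 and 6, against 7.91 to 27.9 CPM in GFPlow. Neither part of GFPtotal overlapped GFPlow, the log2 fold change was 3.42 (SE 0.53, edgeR adjusted p = 0.00253), and it was called in 20 of 20 alternatives. Jak1, the kinase bound to gp130 and the second most abundant of the list, was at 30.6 FPKM in GFPtotal, against 25.7 FPKM in GFPlow, and did not pass (adjusted p = 0.427).

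**Figure D3:**
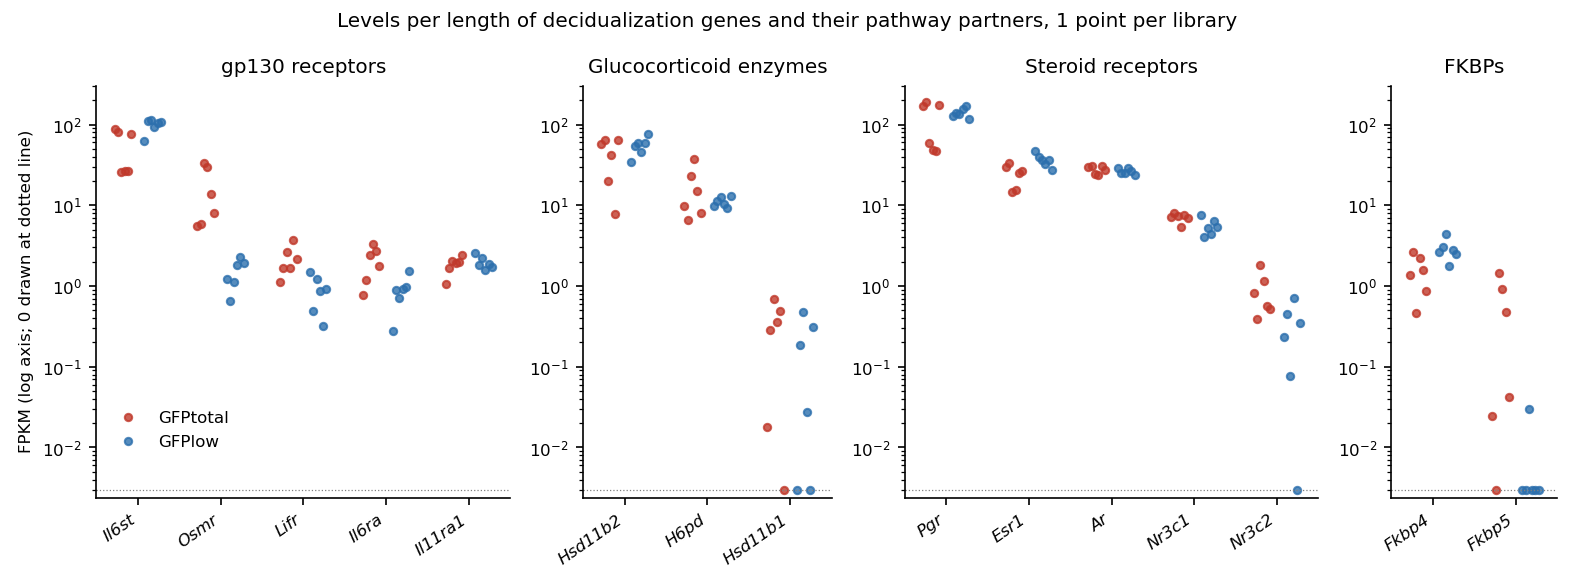
Vertical axis: FPKM on a log axis, 1 point per library, with 0 drawn at the dotted line, for GFPtotal (red, left) and GFPlow (blue, right). Il6st lies above Lifr and Il11ra1 in every library, Osmr is separated between the sorts, and Hsd11b2 (42.5 FPKM in GFPtotal, 54.6 FPKM in GFPlow) lies far above Hsd11b1.

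Of the enzymes that set glucocorticoid supply, Hsd11b2, which inactivates the hormone, was at 42.5 ± 23.9 FPKM in GFPtotal, against 54.6 ± 14.4 FPKM in GFPlow, and H6pd, which feeds cofactor to the Hsd11b1 enzyme, at 16.6 ± 11.6 FPKM in GFPtotal, against 11.1 ± 1.52 FPKM in GFPlow. Hsd11b1 was below both in each sort. Hsd11b2 was 14.5 to 77.5 CPM in GFPtotal 3, 4 and 5, with 107 to 119 CPM in GFPtotal 1, 2 and 6, against 63.4 to 142 CPM in GFPlow. H6pd split the other way, at 78.4 to 194 CPM in GFPtotal 3, 4 and 5, with 34.6 to 52.0 CPM in GFPtotal 1, 2 and 6, against 49.0 to 68.9 CPM in GFPlow. Among steroid receptors, chaperones and cofactors 0 of 16 tested genes were called with edgeR, 1 with DESeq2 and 0 with limma-voom, with a median log2 fold change of -0.21. The 2 most abundant were Hsp90ab1, a steroid receptor chaperone, at 98.4 FPKM in GFPtotal, against 134 FPKM in GFPlow, and Pgr, the progesterone receptor itself. Pgr was 400 to 501 CPM in GFPtotal 3, 4 and 5, with 1466 to 1629 CPM in GFPtotal 1, 2 and 6, against 989 to 1449 CPM in GFPlow, so that the GFPtotal libraries lay below and above the whole GFPlow range. Its log2 fold change over all libraries was -0.29 (edgeR adjusted p = 0.717). The glucocorticoid receptor gene Nr3c1 was at 7.10 ± 0.97 FPKM in GFPtotal, against 5.51 ± 1.35 FPKM in GFPlow, with overlapping ranges.

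Other glucocorticoid and progesterone responsive genes numbered 14, of which 12 were tested, 2 were called, both higher in GFPtotal, and 11 had a positive log2 fold change (median 0.34). Irs2, an adaptor of the insulin receptor, was 32.4 to 37.1 CPM in GFPtotal 3, 4 and 5, with 3.02 to 11.1 CPM in GFPtotal 1, 2 and 6, against 2.94 to 5.60 CPM in GFPlow. Its log2 fold change was 2.33 (SE 0.50, edgeR adjusted p = 0.0105) over all libraries and 0.83 (adjusted p = 0.529) without GFPtotal 3, 4 and 5, and limma-voom did not call it (1.98, adjusted p = 0.0702). Nfkbia, the inhibitor of NF-kappa-B, averaged 17.4 ± 5.73 CPM in GFPtotal, against 7.64 ± 1.92 CPM in GFPlow (log2 fold change 1.19, edgeR adjusted p = 0.0279). Its call ended without any of GFPtotal 3, 4 or 5 or GFPlow 1, 4 or 6 (adjusted p 0.0506 to 0.0709), and without GFPtotal 3, 4 and 5 together (0.82, 0.377). Nfkbia was called in 12 of the 20 alternatives. Dusp1, a phosphatase of MAP kinases, and Bcl6, a repressor, were the most abundant, and neither passed (adjusted p = 0.0613 and 0.664). Immediate early and dissociation genes summed to 1709 to 2535 CPM in GFPtotal, against 839 to 1843 CPM in GFPlow, with 4 of 13 called higher, and their part in these values was not tested.

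Of 18 other decidualization transcription factors 17 were tested and 2 were called, Twist1 and Runx1, both higher in GFPtotal, with a median log2 fold change of 0.01. Twist1, a mesenchymal basic helix-loop-helix factor, averaged 5.24 ± 2.10 CPM in GFPtotal, against 1.67 ± 0.52 CPM in GFPlow, without overlap (log2 fold change 1.64, edgeR adjusted p = 0.0341). Runx1 averaged 31.4 ± 10.7 CPM in GFPtotal, against 13.7 ± 4.72 CPM in GFPlow (1.19, adjusted p = 0.0332). The Twist1 call ended without any of GFPtotal 1, 3, 5 or 6 or any GFPlow library (adjusted p 0.0517 to 0.112) and without GFPtotal 3, 4 and 5 together (0.195). The Runx1 call ended without any of GFPtotal 1, 3, 4 or 6 or GFPlow 1, 2, 5 or 6 (0.0514 to 0.0799). Of the 20 alternatives 5 called Twist1 and 10 called Runx1, and limma-voom called neither. The most abundant of the list were Pgr and Esr1, the oestrogen receptor alpha gene, at 24.1 ± 7.54 FPKM in GFPtotal, against 36.6 ± 6.72 FPKM in GFPlow (adjusted p = 0.0937).

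Of 20 markers of established decidua 12 were tested, of which 1 was higher and 2 were lower in GFPtotal, and the median log2 fold change was -0.12. Ptgs2, the inducible prostaglandin synthase, averaged 11.0 ± 3.82 CPM in GFPtotal, against 1.52 ± 1.04 CPM in GFPlow (log2 fold change 2.84, edgeR adjusted p = 0.00354), without overlap, and was called in 20 of 20 alternatives. Wnt4, a stromal ligand needed for decidualization in mice, averaged 4.33 ± 1.83 CPM in GFPtotal, against 14.5 ± 9.14 CPM in GFPlow (-1.74, adjusted p = 0.0181, and 0.199 without GFPtotal 3, 4 and 5). Gja1, the gap junction protein connexin 43, averaged 108 ± 21.3 CPM in GFPtotal, against 170 ± 33.2 CPM in GFPlow (-0.66, adjusted p = 0.0306). Its call ended without any of GFPtotal 3, 4 or 5 or GFPlow 2, 3 or 6 (0.0616 to 0.0795), and without GFPtotal 3, 4 and 5 together (0.272). The decidual prolactins were close to undetected, with 0 counts of Prl3c1 in all, 1 of Prl8a2 in GFPtotal, against 0 in GFPlow, and 0 of Prl6a1 in GFPtotal, against 5 in GFPlow. Igfbp1 had 1 count in GFPtotal, against 16 in GFPlow. The deiodinase gene Dio2, in contrast, was at 794 FPKM in GFPtotal, against 1257 FPKM in GFPlow, and did not pass (adjusted p = 0.182). In CPM it was 2019 to 3271 in GFPtotal 3, 4 and 5, with 4987 to 7518 in GFPtotal 1, 2 and 6, against 6266 to 8655 in GFPlow.

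Of 10 tested genes of the EGF receptor pathway 1 was called, with a median log2 fold change of 0.21. This was Dusp6, a feedback phosphatase of ERK, at 3.80 ± 3.36 CPM in GFPtotal, against 0.338 ± 0.407 CPM in GFPlow (3.44, edgeR adjusted p = 0.0371). The call ended without any of GFPtotal 2, 3 or 4 or GFPlow 2, 3, 4 or 5 (0.0550 to 0.108), and without GFPtotal 3, 4 and 5 together (0.204). Dusp6 was called in 10 of the 20 alternatives. Egfr, the direct target of the Errfi1 product, was the most abundant, at 52.1 ± 11.5 FPKM in GFPtotal, against 34.5 ± 7.77 FPKM in GFPlow, and missed the threshold (adjusted p = 0.0551), as did the feedback inhibitor Spry2 (0.0944). Of 15 FOXO regulators and targets the 1 called was again Irs2 (median 0.36), and the most abundant, Cat (catalase), had a log2 fold change of 0.10. Of the 4 fibroblast growth factors that HAND2 is known to repress in mouse uterus, 2 were tested. Fgf1 averaged 14.1 ± 3.55 CPM in GFPtotal, against 2.73 ± 2.21 CPM in GFPlow, without overlap (2.37, adjusted p = 0.00782, and 0.0903 without GFPtotal 3, 4 and 5). Fgf2 was 59.2 to 135 CPM in GFPtotal 3, 4 and 5, with 355 to 421 CPM in GFPtotal 1, 2 and 6, against 105 to 381 CPM in GFPlow, and did not pass (adjusted p = 0.918). Of 12 tested family relatives 0 were called by edgeR, DESeq2 or limma-voom, and the most abundant, Klf6 and Klf4, had log2 fold changes of 0.33 and 0.35.

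**Figure D4:**
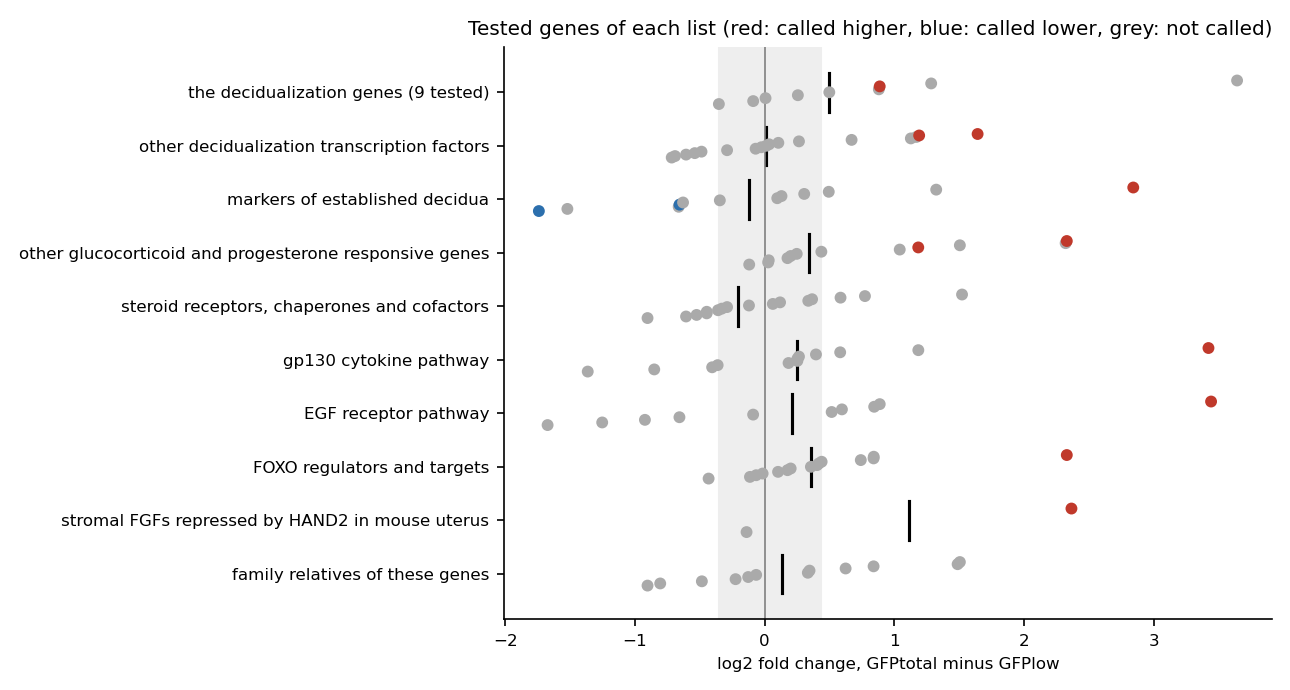
Horizontal axis: log2 fold change, GFPtotal minus GFPlow, for the tested genes of the 10 decidualization genes and of each related list (rows). Red points were called higher, blue lower, grey neither, black bars are list medians, and the grey band spans the quartiles of all tested genes (-0.35 to 0.44). The bars of all lists but the decidualization genes and the fibroblast growth factors lie inside that band.

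Likeness between genes was measured over the 12 libraries as the root mean square difference of log2 CPM, after each gene was set to mean 0 and SD 1, so it reads the pattern and not the level. Klf9 was closest to the nuclear noncoding RNA gene Neat1 (0.25) and to Slfn5 (0.26), beside a median of 1.42 over 6560 genes. Neat1 was itself called higher in GFPtotal (log2 fold change 1.59, edgeR adjusted p = 0.00206), as was Slfn5 (1.90, 0.0110). Both were picked for their likeness to Klf9 over the same libraries, so their calls are no separate result. Errfi1 was closest to Ccn1, a matricellular gene (0.32), and Socs2, a suppressor of cytokine signalling (0.40). Foxo1 was closest to Ampd3 (0.35) and Tram2 (0.38), and Lifr to Prkg1, the cyclic GMP-dependent kinase gene (0.34), and L3hypdh (0.36). The rest were less close to any gene, with Zbtb16 nearest to Tgfbr2 (0.46) and Mpzl1 (0.47), Hsd11b1 to Bag6 (0.49) and Thbd (0.55), Hand2 to Tex10 (0.51) and Ap1ar (0.52), Cebpb to Arpc1a (0.57) and Klf4 (0.61), and Il11ra1 to Pigp (0.59) and Elac1 (0.64). Among the 9 tested genes themselves, the nearest pairs were Klf9 with Zbtb16 (0.66) and with Lifr (0.69) and Foxo1 with Errfi1 (0.76), and the most unlike pair was Errfi1 with Lifr (1.73).

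**Figure D5:**
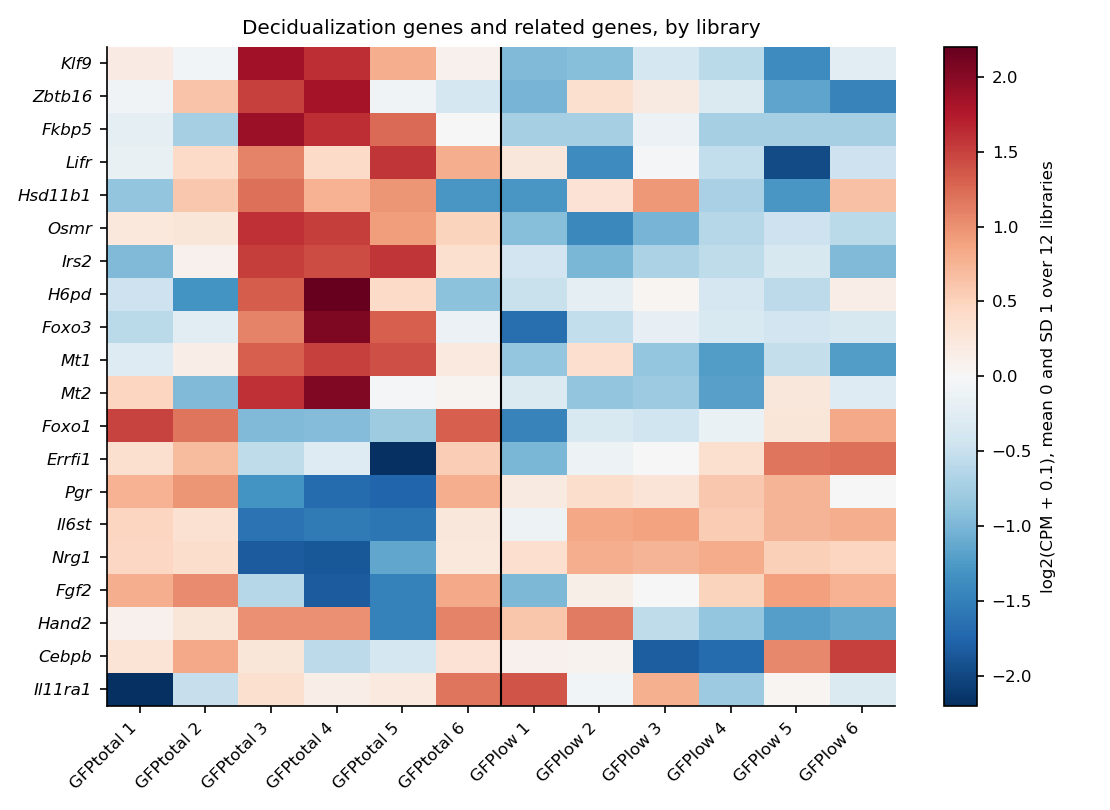
Rows are the 10 decidualization genes with 10 related genes picked and ordered after their values were seen, columns the 6 GFPtotal libraries and then the 6 GFPlow libraries. Colour gives log2(CPM + 0.1) set to mean 0 and SD 1 over the 12 libraries, red high and blue low. Klf9, Zbtb16 and Fkbp5 are highest in GFPtotal 3 and 4, and Foxo1, Pgr and Fgf2 are higher in GFPtotal 1, 2 and 6 than in GFPtotal 3, 4 and 5.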

How the data were processed

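Paired-end fragments were counted by the authors per gene with featureCounts 1.6.4 over exons of Ensembl release 84 on GRCm38, with a mapping quality of at least 10 and no use of strand, per the file headers. The deposited values are these raw counts, and 12 of 12 libraries of the series table equal the single files. Cutadapt and SAMtools were used per the submitters' processing notes, and the aligner was not given in the sources used here. Symbols were matched by identifier for 47224 of 47729 genes, and coordinates are those of the files. Genes kept by filterByExpr (14523) were scaled by TMM and tested with edgeR 4.0.16 in R 4.3.3 (quasi-likelihood, robust, no covariate, GFPtotal minus GFPlow). P-values are two-sided and adjusted by Benjamini-Hochberg over all genes tested, and SE is the fold change divided by the square root of F. The procedure was tested on simulated counts. DESeq2 1.42.0, limma-voom (limma 3.58.1), other scalings, no filter, a block and leaving out libraries were alternatives. No pair of libraries of 1 group agreed within sampling noise (chi-square per degree of freedom at least 19.5 in GFPtotal, against 25.5 in GFPlow). The 10 genes and the lists were chosen with earlier results of these data known. Named from each list were up to 4 called genes by size of change and the 2 of highest mean FPKM, with the 2 genes most like each of the 10, overlapping genes and near-identical copies. The values of 1 gene so named are not reported here. Nr3c1, H6pd, Hsd11b2, the prolactins and Igfbp1 were named from the lists after their values were seen.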

Additional observations from a re-analysis of the deposited data

Results flagged for a closer look

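Fkbp5 in GFPlow 3, at 0.189 CPM, lay apart from the other 5 GFPlow libraries, which had 0 counts. It was the 1 value of this kind among 20 sets of 6 libraries looked at (the 10 genes in each sort). It rests on 3 counts, and beside 5 values of 0 any count in the remaining library would stand apart in this way, so the usual chance rate of about 1 in 20 does not apply to it.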

How the results depend on the processing

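Direction held in all 20 alternatives for Klf9, Foxo1, Hand2, Zbtb16 and Lifr. Cebpb turned with DESeq2 size factors (-0.0132), total library size (-0.10), without mitochondrial genes (-0.0182), with DESeq2 (-0.0150) and in leave-one-out fits (-0.15 to 0.23). Without GFPtotal 3, 4 and 5, Hsd11b1 was -0.73 and Errfi1 0.0634. Il11ra1 was -0.19 without GFPtotal 6 and 0.026 without GFPtotal 1. The 785 genes called (661 higher, 124 lower) became 1381 (1033 and 348) with DESeq2, 295 (245 and 50) without GFPtotal 3, 4 and 5, and 467 to 970 in leave-one-out fits (406 to 791 higher, 61 to 179 lower). Lower calls were 257 by total library size and 273 with limma-voom. Of the 10 genes, 0 were called by total library size (762 of 14523 genes in all), 3 without the filter (865 of 28485), 3 with DESeq2 (1381 of 14523), 2 with limma-voom (989 of 14523) and 0 to 2 in leave-one-out fits. Same-numbered libraries of both sorts did not deviate together (correlations -0.14 to 0.09, own number best for 2 of 6). The deviations within GFPtotal also carry the split of GFPtotal 3, 4 and 5 from GFPtotal 1, 2 and 6. These correlations therefore cannot show whether numbers pair libraries. With the replicate block 582 genes and 2 of the 10 (Klf9 and Zbtb16) were called, 1 other transcription factor and 0 EGF receptor genes. Of the other transcription factors 1 was called without the filter, 0 with limma-voom and 0 to 3 in leave-one-out fits. Of the steroid-responsive genes 1 was called by total library size, 4 with DESeq2 and 1 to 2 in leave-one-out fits. Of the receptors and cofactors 1 was called by total library size, 1 with DESeq2 and 0 to 2 in leave-one-out fits. Of the gp130 genes 2 were called by total library size, without the filter, with DESeq2 and with limma-voom, and 1 to 2 in leave-one-out fits. Of the EGF receptor genes 2 were called by total library size and without the filter, 3 with DESeq2, 5 with limma-voom and 0 to 3 in leave-one-out fits. Of the FOXO genes 0 were called with limma-voom and 1 to 2 in leave-one-out fits, and of the family relatives 0 to 1. Without GFPtotal 3, 4 and 5, 1 decidua marker and 0 steroid-responsive, EGF receptor, FOXO or FGF genes were called. The causes were not tested. Levels per length of the 10 genes on total library sizes stayed within 1 SD of those given. Low counts limit the precision for Fkbp5, Hsd11b1 and Cebpb.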

Other observations

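Hand2os1, a noncoding RNA gene beside Hand2 that was picked out after its values were seen, was 101 to 117 CPM in GFPtotal 3, 4 and 5, with 46.3 to 58.5 CPM in GFPtotal 1, 2 and 6, against 65.6 to 92.3 CPM in GFPlow, so GFPtotal lay on both sides of GFPlow. The ligands of the receptors were picked the same way. Il6, the interleukin-6 gene and a cytokine of the gp130 family, had 110 counts in GFPtotal 3, 4 and 5, with 14 in GFPtotal 1, 2 and 6, against 1 in GFPlow. Il11, the ligand of the Il11ra1 receptor, had 1 count in GFPtotal 3, 4 and 5, with 62 in GFPtotal 1, 2 and 6, against 226 in GFPlow. Lif, the ligand of the Lifr receptor, had 17 counts in GFPtotal 3, 4 and 5, with 179 in GFPtotal 1, 2 and 6, against 237 in GFPlow. The neuregulin gene Nrg1 was 29.6 to 65.4 CPM in GFPtotal 3, 4 and 5, with 295 to 377 CPM in GFPtotal 1, 2 and 6, against 339 to 556 CPM in GFPlow. Il11, Lif and Nrg1 did not pass the test (edgeR adjusted p = 0.514, 0.921 and 0.298), and Il6 did not pass the filter.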
